A study of Mus musculus with 4 samples.

Results

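The 10 genes described here encode secreted transport proteins and endocytic receptors of the visceral endoderm: *Afp*, *Ttr*, *Rbp4*, *Apoa1*, *Apob*, *Apoe* and *Apom* are secreted, and *Amn*, *Cubn* and *Lrp2* form the uptake machinery of the cell surface. They were found by gene symbol, and all 10 were present among the 24347 gene rows of each expression file. RNA-seq had been carried out at day 3 on embryoid bodies (EBs), which mouse embryonic stem cells (mESCs) form in suspension and in which they differentiate once leukemia inhibitory factor (LIF) is withdrawn, here in medium with serum. EBs of WT mESCs were compared with EBs of mESCs carrying a promoter KO of *Gm11549*, the gene of the micropeptide NEMEP, with 2 samples of each genotype, here called WT 1 and 2 and promoter KO 1 and 2. Pairs of values below are given in the order of these numbers. The comparison asks which genes depend on *Gm11549* during mesendoderm differentiation. All samples are labelled as strain 129/Ola and as mesendoderm derived from ES cells. For these EBs the study names no ligand or inhibitor added to the medium without LIF. The promoter KO was made with CRISPR/Cas9 and a pair of guide RNAs, and cells were sorted singly and grown as clones. The study calls the samples biologically independent, but the labels do not say whether they come from separate clones or cultures, so the p-values below measure only the spread between these samples.

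Expression is given in FPKM, fragments counted on a gene after division by transcript length and by library size. The sum over all genes was 677777 and 696928 FPKM in WT EBs and 673951 and 679870 in promoter KO EBs. From the value that 1 fragment gives in genes with a single annotated transcript, the depth was estimated at 24400000 and 21700000 fragments for WT and at 21300000 and 19900000 for promoter KO. Whether the libraries were also scaled to each other is not given in the sources used here, and any such scaling would be part of the FPKM and of these depths. *Gm11549* (chr3:36515057-36521813 in GRCm38, minus strand) was at 0.750 and 0.522 FPKM in WT EBs and at 0 and 0.0659 in promoter KO EBs, which is the direction the labels give. It did not reach 1 FPKM in any of the 4 samples and was not tested.

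The visceral endoderm is the epithelium that surrounds the early mouse embryo and feeds it before the placenta works. It secretes plasma proteins that the liver makes later in life, among them alpha-fetoprotein, transthyretin and the apolipoproteins, and takes up proteins, lipids and vitamins from the maternal side through coated pits. Cubilin, a large protein with no membrane span of its own, is carried to the apical surface by amnionless, and this complex binds many of the same ligands as megalin, the product of *Lrp2*.

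The libraries numbered 2 stood apart from those numbered 1 in a set of transcripts known as abundant products of the adult liver. *Alb*, the gene of serum albumin, was at 0.0220 FPKM in WT 1 and 0.0251 in promoter KO 1, against 5.34 in WT 2 and 7.48 in promoter KO 2. *Mup3*, which encodes a major urinary protein, was listed at 0 in WT 1 and promoter KO 1 and was at 2.05 FPKM in WT 2 and at 3.04 in promoter KO 2. A list of 12 such transcripts, written after the values were seen, summed to 0.312 and 23.9 FPKM in WT and to 0.551 and 31.6 in promoter KO EBs, with *Alb* as its most abundant gene. All 12 were higher in both libraries numbered 2 than in both numbered 1, and none of the 9 tested was called between the genotypes by limma, also at an unadjusted p under 0.05. Since the list was written from these values, the choice fixed this order. It also gives a wide spread within each genotype, so nothing is read from the missing calls. Over all 24347 gene rows, 8 genes were higher by more than 1 on the log2(FPKM + 1) scale in both libraries numbered 2 than in both numbered 1, and 3 genes, *Apoo-ps*, *Dynlt1f* and *Hmgn2*, named after their values were seen, were lower by more than 1. The *Mup* genes are near-identical copies, so the split of fragments among them is uncertain. Both genotypes have 1 library of each number. Differences within each number are therefore given for each of the 10 genes beside those over all 4 libraries, and the part of these transcripts in the results was not otherwise tested.

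**Figure D1:**
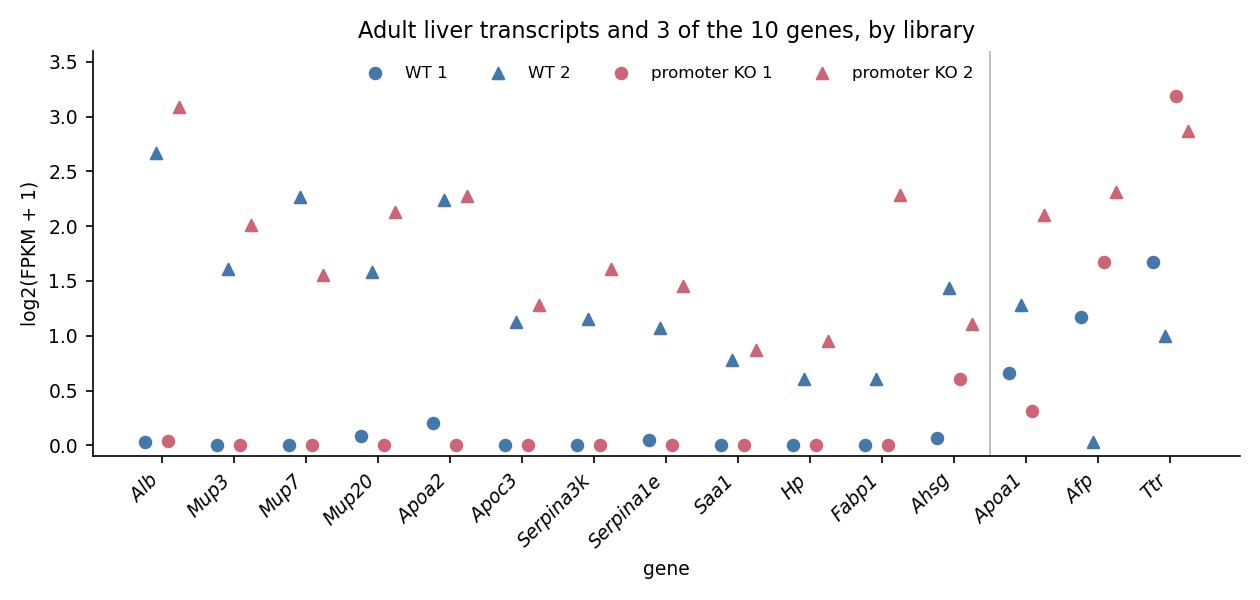
Expression of 12 transcripts known from adult liver (left of the line) and of *Apoa1*, *Afp* and *Ttr* (right) as log2(FPKM + 1), with 1 point for each library, WT in blue, promoter KO in red, circles for libraries numbered 1 and triangles for those numbered 2. The triangles lie above the circles for all 12 liver transcripts and for *Apoa1*, whereas for *Ttr* both red points lie above both blue points.

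For a view of the start of these genes, the RefSeq promoter windows (GRCm38.p6, 250 bases before to 50 bases after the annotated start) are printed for the 3 uptake receptors, whose values were all higher in promoter KO EBs, and for *Afp* as a secreted gene that was not called. Of the 10 genes, 9 had 12 windows in the table, 3 of them for *Apoe* and 2 for *Rbp4*, and *Ttr* had none. Motifs of 4 kinds of factor known from endoderm and liver were searched on both strands. The letters were GTTAAT for HNF1 factors, CAAAGTNCA for HNF4 factors, TGTTTAC for the forkhead factors FOXA and AGATAA for factors of the GATA family, and none of these motifs contains another. Capitals mark a match. The sequences run 5′ to 3′ on the strand of the gene, and the window of *Cubn*, set by the RefSeq start, lies wholly before the start of the gene in GENCODE.
*Amn*, chr12:111270846-111271145, plus strand: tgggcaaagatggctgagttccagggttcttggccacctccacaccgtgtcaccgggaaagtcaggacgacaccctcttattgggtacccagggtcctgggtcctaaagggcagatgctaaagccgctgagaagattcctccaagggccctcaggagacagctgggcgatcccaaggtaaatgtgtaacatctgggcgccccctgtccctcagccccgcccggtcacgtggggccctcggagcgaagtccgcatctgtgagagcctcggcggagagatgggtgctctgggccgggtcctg
*Cubn*, chr2:13491827-13492126, minus strand: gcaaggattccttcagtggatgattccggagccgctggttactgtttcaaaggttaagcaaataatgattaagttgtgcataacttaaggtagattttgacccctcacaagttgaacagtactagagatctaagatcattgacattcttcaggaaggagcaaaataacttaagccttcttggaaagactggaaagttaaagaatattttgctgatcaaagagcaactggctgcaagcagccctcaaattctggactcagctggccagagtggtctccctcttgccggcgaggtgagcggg
*Lrp2*, chr2:69585980-69586279, minus strand: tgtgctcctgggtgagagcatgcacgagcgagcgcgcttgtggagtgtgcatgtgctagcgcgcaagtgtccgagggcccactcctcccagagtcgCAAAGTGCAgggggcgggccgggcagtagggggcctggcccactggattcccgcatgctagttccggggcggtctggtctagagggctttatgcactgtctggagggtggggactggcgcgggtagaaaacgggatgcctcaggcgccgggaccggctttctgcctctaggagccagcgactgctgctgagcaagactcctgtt
*Afp*, chr5:90490464-90490763, plus strand: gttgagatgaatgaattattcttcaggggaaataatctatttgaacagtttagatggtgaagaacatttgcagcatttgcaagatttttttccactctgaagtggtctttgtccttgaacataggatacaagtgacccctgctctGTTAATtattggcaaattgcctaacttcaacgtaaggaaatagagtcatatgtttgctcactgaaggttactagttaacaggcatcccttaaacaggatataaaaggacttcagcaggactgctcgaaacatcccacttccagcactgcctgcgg

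The window of *Lrp2* held 1 match to the HNF4 letters, starting 154 bases before the annotated start, and 1.41% of all 32851 windows held such a match. The window of *Afp* held 1 match to the HNF1 letters, starting 105 bases before the start, and 1 of the 3 windows of *Apoe* held 1 starting 172 bases before it, against 7.10% of all windows. The windows of *Amn* and *Cubn* held none of the 4 motifs. The FOXA letters stood in the same window of *Apoe* and in 1 of the 2 windows of *Rbp4*, against 3.65% of all windows, and a gene with several windows has more chances of a match. The window of *Rbp4* with the match is set by a RefSeq start that lies before the start of the gene in GENCODE. The GATA letters stood in no window of the 9 genes, against 11.2% of all windows. In base composition the receptors differed, with 62.3% G and C and 15 CG pairs in the window of *Amn*, 65.0% and 20 in that of *Lrp2*, and 44.3% and 5 in that of *Cubn*, beside medians of 52.7% and 7 over all windows. These matches describe letters only and say nothing of binding.

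The test took in the 11941 genes that reached 1 FPKM in 2 or more of the 4 samples, and fold changes are differences of mean log2(FPKM + 1), promoter KO minus WT. The added 1 makes these values understate the change of genes with low FPKM. All 10 genes passed the filter, but *Apob* and *Cubn* were under 1 FPKM in both WT samples and passed only through the promoter KO samples. A gene that passes through 1 genotype alone has to be higher there, so such genes are described by their values and left out of the counts of calls and the medians of lists below. This left 8 of the 10 genes and 11610 of the 11941 tested genes, with 1 FPKM or more in a sample of each genotype. The 10 genes were chosen with earlier results of these data known. The counts below, and the shares of all genes beside them, are therefore descriptions and no test of the set. Of these 8 genes, 3 were called higher in promoter KO by limma at an adjusted p under 0.05, namely *Amn*, *Lrp2* and *Ttr*, and none was called lower. Over the 11610 genes 166 were called higher, or 1.43%, and 217 were called lower, or 1.87%, and over all tested genes these counts were 201, or 1.68%, and 226, or 1.89%. Without adjustment, 6 of the 8 genes were higher and 1 was lower at a p under 0.05, beside 14.3% and 15.1% of the 11610 genes. With thresholds like those of the study, a fold change above 2 and an unadjusted p under 0.05, the count of higher genes was 4 of the 8, beside 1.08%, where the fold is on the log2(FPKM + 1) scale. With the fold as a ratio of mean FPKM, which has no added 1, it was 5 of the 8, beside 1.89%. With WT 2 or promoter KO 1 left out, limma called none of the 10 genes and none of all tested genes, while 5 and 7 of the 8 were higher at a p under 0.05 before adjustment, beside 6.95% and 7.51% of the 11610 genes. The log2 fold changes were then 2.24 and 2.59 for *Amn*, 1.46 and 1.46 for *Lrp2* and 1.36 and 1.54 for *Ttr*. With 1 sample left in a genotype, that sample is assumed to vary like those of the other. None of the 10 was called by limma either with no filter beyond a value above 0, where 6 of the 8 were higher and 1 was lower at an unadjusted p under 0.05, beside 12.8% and 13.1% of the 11610 genes. Over all alternative fits the adjusted p lay between 0.00808 and 0.133 for *Amn* and between 0.00918 and 0.133 for *Lrp2*.

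In 6 of the 8 genes the lower promoter KO sample was above the higher WT sample, in *Rbp4* both promoter KO samples were below, and in *Apoa1* the genotypes overlapped. Over the 11610 genes, the genotypes stood apart with promoter KO above WT in 32.4% and with promoter KO below WT in 31.9%. The median log2 fold change was 1.13 over the 8 genes and also over all 10, beside 0.0042 for all tested genes. Over the 8 genes it was 0.42 within the libraries numbered 1 and 1.46 within those numbered 2, beside -0.0162 and 0.0161 over the 11610 genes. From EBs as bulk samples, more cells of a type and more RNA per cell cannot be told apart.

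**Figure D2:**
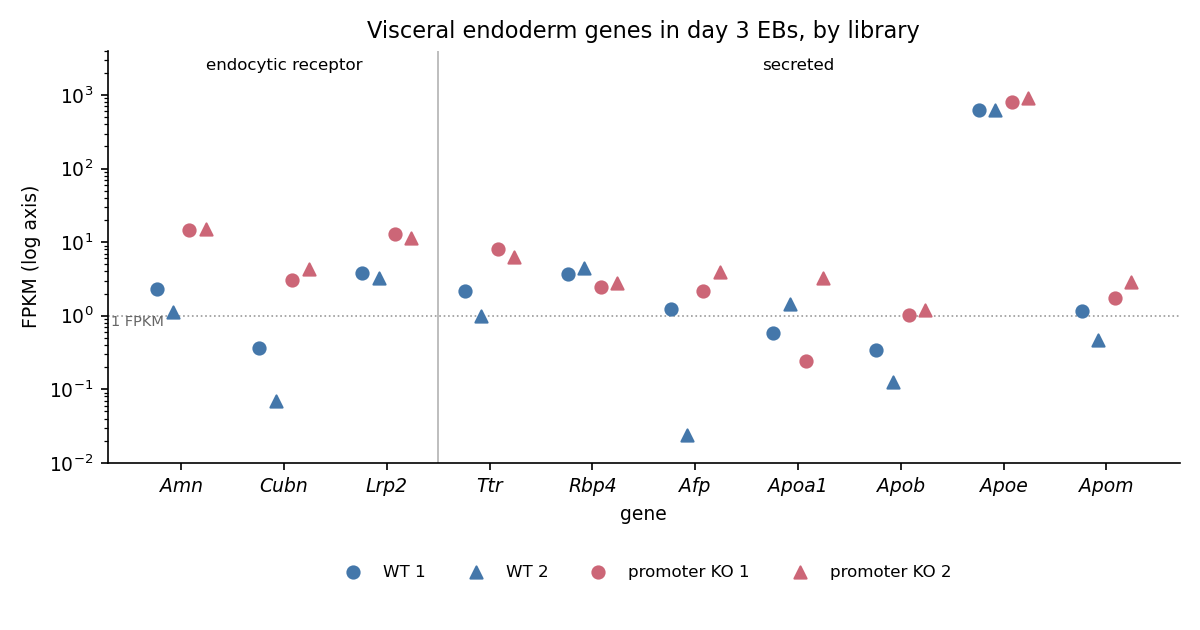
FPKM of the 10 genes on a log axis, with 1 point for each library, WT in blue, promoter KO in red, circles for libraries numbered 1 and triangles for those numbered 2, and a dotted line at 1 FPKM. The red points lie above the blue ones in 8 genes, and *Apoe* lies far above the rest in all libraries.

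Of the 3 endocytic receptor genes, *Amn* and *Lrp2* were called higher in promoter KO EBs, and *Cubn* had higher values there. Their FPKM summed to 6.48 and 4.50 in WT EBs against 30.5 and 30.8 in promoter KO EBs. *Amn* (chr12:111271095-111276426, plus strand), which encodes the membrane anchor amnionless, was at 2.33 and 1.14 FPKM in WT EBs and at 14.4 and 15.1 in promoter KO EBs. Both promoter KO samples were far above both WT samples and close to each other, and the ratio of mean FPKM was 8.51. Its log2 fold change was 2.56 with an SE of 0.22 (limma, adjusted p = 0.0208), and *Amn* ranked 8 among all 11941 tested genes by fold change. The difference was 2.21 within the libraries numbered 1 and 2.91 within those numbered 2.

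*Cubn* (chr2:13276338-13491813, minus strand), the gene of cubilin, was at 0.362 and 0.0686 FPKM in WT EBs and at 3.09 and 4.29 in promoter KO EBs. It was thus low in WT EBs, where these values stand for about 97.7 and 16.5 fragments, against about 728 and 944 in the promoter KO samples. The log2 fold change was 1.95 with an SE of 0.21, and no call is read from it, since *Cubn* passed the filter only through the promoter KO samples. With no filter beyond a value above 0, its adjusted p was 0.133 (limma), and over all alternative fits, most of which kept the filter, it lay between 0.0137 and 0.140. The difference was 1.59 within the libraries numbered 1 and 2.31 within those numbered 2. The ratio of mean FPKM, which has no added 1, was 17.1 and the highest of the 10 genes. A noncoding gene annotated on the opposite strand, *Gm13270*, overlaps *Cubn* over 49490 bases, and whether counting used strand is not given in the sources used here, so fragments of the pair cannot be told apart in that stretch.

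*Lrp2* (chr2:69424340-69586065, minus strand) encodes megalin, the large endocytic receptor that acts with cubilin. It was at 3.78 and 3.29 FPKM in WT EBs and at 13.0 and 11.4 in promoter KO EBs. Replicates lay close together and the genotypes far apart, with a log2 fold change of 1.54 and an SE of 0.14 (limma, adjusted p = 0.0208). Within the libraries numbered 1 and 2 the difference was 1.55 and 1.53. *Lrp2* was the highest of the 3 receptors in both WT samples, and *Amn* the highest in both promoter KO samples.

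The genes next to the receptors on the chromosome were not called. *Traf3*, 3942 bases before *Amn*, had a log2 fold change of 0.14 (limma, adjusted p = 0.532), and *Cdc42bpb*, 16550 bases after it, one of 0.19 (adjusted p = 0.269). *Rsu1*, 4923 bases from *Cubn*, had a log2 fold change of 0.33 (limma, adjusted p = 0.0945). *Bbs5*, 61106 bases from *Lrp2*, had one of 0.05 (limma, adjusted p = 0.817), and *Dhrs9* on its other side was listed at 0 in all 4 samples.

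Around the receptors, a list of 14 endocytic partners and related receptors showed no common direction. Of its 12 tested genes, 1 was called higher and none lower, and the median log2 fold change was -0.09. Before adjustment, 2 were higher and 3 lower at a p under 0.05. The gene called was *Dab2*, the adaptor that links megalin to clathrin, at 4.97 and 2.48 FPKM in WT EBs and at 13.0 and 18.4 in promoter KO EBs. Its log2 fold change was 1.86 with an SE of 0.29 (limma, adjusted p = 0.0408), and it was 1.23 within the libraries numbered 1 and 2.48 within those numbered 2. *Vldlr* and *Lrpap1* are named after their values were seen. *Vldlr*, a receptor for lipoproteins and reelin, was at 4.14 and 5.10 FPKM in WT EBs against 1.06 and 1.99 in promoter KO EBs, with a log2 fold change of -1.17 that missed the threshold (limma, adjusted p = 0.0503). *Lrpap1*, the chaperone of megalin and its relatives, was at 22.8 and 30.2 FPKM in WT EBs against 39.9 and 41.3 in promoter KO EBs, with a log2 fold change of 0.61 (limma, adjusted p = 0.0653). *Tfrc*, the transferrin receptor gene, also named after its values were seen, differed by 0.02 on the log2 scale, with a 95% confidence interval from -0.23 to 0.28.

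**Figure D3:**
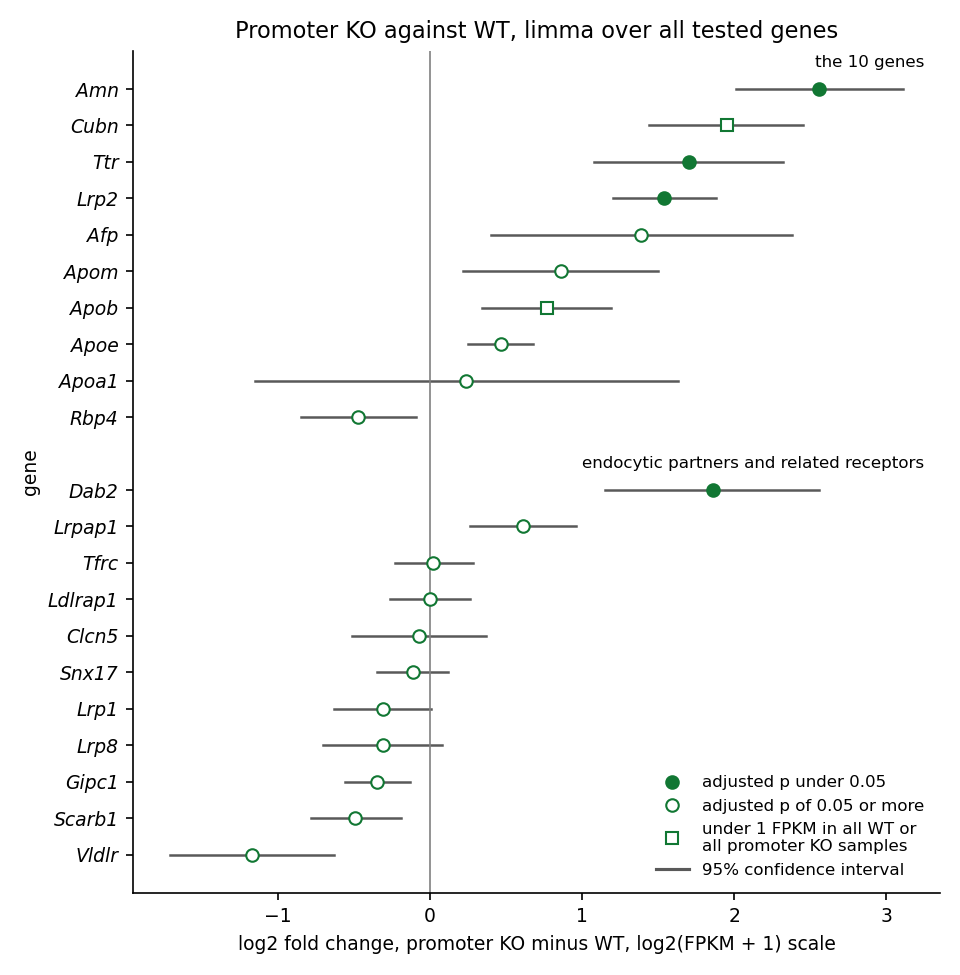
Log2 fold change of promoter KO against WT on the log2(FPKM + 1) scale, with bars for the 95% confidence interval from limma, for the 10 genes and for tested endocytic partners and related receptors. Filled points have an adjusted p under 0.05, which are *Amn*, *Ttr* and *Lrp2* in the upper group and *Dab2* in the lower group, and open squares mark *Cubn* and *Apob*, which were under 1 FPKM in both WT samples.

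Among the 7 secreted proteins, 1 of the 6 other than *Apob* was called higher and none lower, and their median log2 fold change was 0.66. At a p under 0.05 before adjustment, 4 of these were higher and 1 lower. *Ttr*, the gene of transthyretin, a carrier of thyroid hormone and of retinol-binding protein, was at 2.18 and 0.996 FPKM in WT EBs and at 8.14 and 6.32 in promoter KO EBs. The genotypes did not overlap, and the log2 fold change was 1.70 with an SE of 0.25 (limma, adjusted p = 0.0389). Within the libraries numbered 1 the difference was 1.52, and within those numbered 2 it was 1.87. The call of *Ttr* was also lost without the trend in limma, with the same log2 fold change of 1.70 (adjusted p = 0.0624), and without promoter KO 2, with a larger one of 1.86 (adjusted p = 0.0532). Over all alternative fits its adjusted p lay between 0.0100 and 0.171.

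*Rbp4* (chr19:38116629-38125281, minus strand) encodes the retinol-binding protein that travels in blood with transthyretin, and it lay on the other side of 0. It was at 3.66 and 4.44 FPKM in WT EBs and at 2.45 and 2.80 in promoter KO EBs. The log2 fold change was -0.47 with an SE of 0.16, and it was not called (limma, adjusted p = 0.112). It was -0.44 and -0.51 within the libraries numbered 1 and 2.

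*Afp* (chr5:90490737-90508907, plus strand), the gene of alpha-fetoprotein and a marker of visceral endoderm, was at 1.25 and 0.0242 FPKM in WT EBs and at 2.18 and 3.97 in promoter KO EBs. The WT samples stood far apart, with about 56.7 fragments in WT 1 and about 1 (0.977) in WT 2. The log2 fold change of 1.39 had an SE of 0.40 and was not called (limma, adjusted p = 0.0899), and it was 0.50 within the libraries numbered 1 and 2.28 within those numbered 2. *Alb* lies 14135 bases from *Afp*. The 2 genes differed in WT 2, where *Afp* was at its lowest and *Alb* was high, at 5.34 FPKM. Both were highest in promoter KO 2, at 3.97 FPKM for *Afp* and 7.48 for *Alb*. An antisense gene, *Gm43449*, overlaps *Afp* over 9820 bases and could share its fragments.

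None of the 4 apolipoprotein genes was called by limma. Before adjustment *Apoe* and *Apom* had a p under 0.05. *Apob* passed the filter only through promoter KO, so no p is read from it. *Apoe* (chr7:19696109-19699188, minus strand), whose product carries lipid between cells and is made by many cell types, gave 96.0% of the summed mean FPKM of the 10 genes. It was at 634.7 and 616.9 FPKM in WT EBs and at 807.8 and 924.4 in promoter KO EBs. The genotypes did not overlap, and the log2 fold change of 0.47 with an SE of 0.09 missed the threshold narrowly (limma, adjusted p = 0.0509). It was 0.35 within the libraries numbered 1 and 0.58 within those numbered 2. With each sample centred on its median the adjusted p was 0.0497, and over all alternative fits it lay between 0.0295 and 0.247. *Apoc1*, 3449 bases away, was at 22.6 and 32.3 FPKM in WT EBs against 25.4 and 42.0 in promoter KO EBs, with the higher values in the libraries numbered 2.

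*Apob* (chr12:7977648-8016835, plus strand), the structural protein of large lipoproteins, was low throughout, at 0.346 and 0.124 FPKM in WT EBs and at 1.01 and 1.18 in promoter KO EBs. Both promoter KO samples were higher, with a log2 fold change of 0.77 and an SE of 0.17, and with 0.58 and 0.96 within the libraries numbered 1 and 2. *Apom* (chr17:35128997-35132050, minus strand), which carries sphingosine-1-phosphate on lipoproteins, was at 1.17 and 0.464 FPKM in WT EBs and at 1.73 and 2.84 in promoter KO EBs. Its log2 fold change was 0.86 with an SE of 0.26 (limma, adjusted p = 0.0978), and it was 0.33 within the libraries numbered 1 and 1.39 within those numbered 2.

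*Apoa1* (chr9:46228580-46230466, plus strand), the main protein of high-density lipoprotein, was at 0.583 and 1.42 FPKM in WT EBs and at 0.243 and 3.30 in promoter KO EBs. It was the only 1 of the 10 genes that was higher in both libraries numbered 2 than in both numbered 1, as the liver transcripts were. The log2 fold change of 0.24 had an SE of 0.57 (limma, adjusted p = 0.798), and it was -0.35 within the libraries numbered 1 and 0.83 within those numbered 2, so no direction can be given. In the same gene cluster, *Apoc3*, 2467 bases away, was listed at 0 in WT 1 and promoter KO 1 and was at 1.18 FPKM in WT 2 and 1.42 in promoter KO 2. *Apoa4*, 10230 bases away, had another pattern, at 0.389 and 0.0625 FPKM in WT EBs against 0.921 and 1.24 in promoter KO EBs, and was under the filter.

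The samples of a genotype also differed from each other. Of the 8 genes with 1 FPKM or more in a sample of each genotype, 6 were higher in WT 1 than in WT 2, beside 51.2% of the 11610 genes, the exceptions being *Apoa1* and *Rbp4*. Promoter KO 1 was above promoter KO 2 in 2 of them, *Ttr* and *Lrp2*, beside 46.5%. Within the libraries numbered 1, promoter KO exceeded WT in 6 of the 8, beside 48.0%, and by more than 1 on the log2 scale in 3, beside 1.87%. Within the libraries numbered 2 it did so in 7, beside 52.2%, and by more than 1 in 5, beside 1.09%.

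A list of 18 other plasma and lipoprotein genes had 9 tested genes. Of the 8 other than *Soat2*, 1 was called higher and none lower, with a median log2 fold change of 0.24 and 2 higher and none lower at an unadjusted p under 0.05. *Spink1*, a trypsin inhibitor, was at 6.92 and 7.55 FPKM in WT EBs against 27.4 and 29.5 in promoter KO EBs, a log2 fold change of 1.84 with an SE of 0.11 (limma, adjusted p = 0.0208). *Soat2*, which esterifies cholesterol, was at 0.568 and 0.402 FPKM in WT EBs against 1.63 and 1.76 in promoter KO EBs, a log2 fold change of 0.86, and passed the filter only through promoter KO. In this list 11 of the 18 genes were higher in both libraries numbered 2 than in both numbered 1, and *Alb*, *Apoa2* and *Apoc3* are also on the list of liver transcripts.

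Of 8 other visceral endoderm markers 6 were tested. Of the 5 other than *Ihh*, 1 was called higher and none lower, and the median log2 fold change was 0.09, with 2 higher and none lower at a p under 0.05 before adjustment. *Ihh*, a hedgehog ligand of this epithelium, was at 0.216 and 0.202 FPKM in WT EBs against 1.44 and 1.75 in promoter KO EBs, a log2 fold change of 1.10, and likewise passed only through promoter KO. *Clic6*, of the chloride channel family, was at 2.18 and 2.1 FPKM in WT EBs against 7.73 and 10.8 in promoter KO EBs, a log2 fold change of 1.69 (limma, adjusted p = 0.0244).

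The 10 transcription factors of endoderm did not all move the same way. Of 8 tested, *Sox7* passed the filter through promoter KO alone. Of the other 7, none was called higher and 1 was called lower by limma, with a median log2 fold change of -0.56. At a p under 0.05 before adjustment, 1 was higher and 4 were lower. In 5 of these 7 both promoter KO samples were below both WT samples, and in 1 they were above. *Sox7*, a factor of extraembryonic endoderm, was at 0.289 and 0.221 FPKM in WT EBs against 1.87 and 1.66 in promoter KO EBs, a log2 fold change of 1.14. *Gata6*, needed to form the primitive endoderm and used again in mesendoderm, was at 12.8 and 21.7 FPKM in WT EBs against 4.13 and 5.18 in promoter KO EBs, a log2 fold change of -1.65 (limma, adjusted p = 0.0389). *Hnf4a*, named after its values were seen because it is known to drive secreted genes of the visceral endoderm, was at 0.260 and 0.293 FPKM in WT EBs against 0.757 and 1.24 in promoter KO EBs and was not tested.

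Markers of neighbouring cell types moved in both directions. Among 10 genes of the parietal endoderm, the cell layer that makes the basement membrane on the outer side of the yolk sac, 9 were tested. Of the 8 other than *Plat*, which passed the filter only through promoter KO, 5 were called higher and none lower, and the median log2 fold change was 0.95. *Lama1*, a laminin chain, was at 1.51 and 2.18 FPKM in WT EBs against 14.5 and 22.7 in promoter KO EBs, a log2 fold change of 2.76 (limma, adjusted p = 0.0208), and *Col4a2*, *Col4a1*, *Sparc* and *Lamc1* were the other genes called. The list summed to 133.7 and 162.6 FPKM in WT and to 286.3 and 354.8 in promoter KO EBs, with *Sparc* as its most abundant gene. Among 6 genes of the anterior visceral endoderm, which the anterior primitive streak also expresses, 4 were called lower and none higher, and before adjustment 1 was higher at a p under 0.05. The genes called were *Lhx1*, *Cer1*, *Dkk1* and *Hhex*, with log2 fold changes of -3.04, -1.80, -1.09 and -0.74, and the list summed to 196.6 and 216.5 FPKM in WT and to 156.1 and 151.8 in promoter KO EBs, most of all from *Otx2*.

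The labelled cell type was checked with 6 mesendoderm genes, which summed to 655.3 and 903.4 FPKM in WT and to 123.8 and 269.7 in promoter KO EBs, with *T* as the most abundant. Of these 6 genes, 4 were called lower and none higher, *Mesp1*, *Mixl1*, *Evx1* and *Gsc*, with log2 fold changes of -4.14, -2.74, -2.59 and -2.33. All 6 were lower at an unadjusted p under 0.05 and none was higher. Of 9 genes of undifferentiated stem cells none was called by limma, while 4 were higher and 1 was lower at a p under 0.05 before adjustment. The list summed to 191.3 and 223.9 FPKM in WT and to 304.9 and 217.2 in promoter KO EBs, with *Nanog* as its most abundant gene. The lower gene was *Nanog*, named after its values were seen, with a log2 fold change of -0.38. The largest differences in this list were those of *Nr0b1*, *Esrrb*, *Zfp42* and *Tfcp2l1*, at 2.17, 1.52, 1.01 and 0.85 on the log2 scale. They were larger within the libraries numbered 1, at 3.17, 2.41, 1.77 and 1.27, than within those numbered 2, at 1.16, 0.63, 0.24 and 0.42, and promoter KO 1 was the highest library for all 4 genes.

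Markers of other cell types that such cultures could hold were mostly low for fibroblasts and macrophages. Among those of trophoblast, fold changes had both signs and the only gene called was lower. Of 8 fibroblast genes 3 were tested, and *Col1a1* and *Pdgfrb*, named after their values were seen, passed the filter only through WT. The remaining gene, *Thy1*, was not called by limma, also at an unadjusted p under 0.05. *Postn* and *Lum* were listed at 0 in all 4 samples, and the list summed to 14.3 and 14.5 FPKM in WT and to 18.0 and 11.7 in promoter KO EBs, mainly from *Thy1*. Of 5 macrophage genes only *Cd68* passed the filter and it was not called, *Adgre1* was listed at 0 in all 4 samples, and the list summed to 6.13 and 7.56 FPKM in WT and to 7.63 and 10.5 in promoter KO EBs. Of 8 trophoblast genes 6 were tested, with *Hand1*, named after its values were seen, passing only through WT. Of the other 5, 1, *Tfap2c*, was called lower, with a log2 fold change of -1.48, and none was called higher. The median log2 fold change of these 5 was -0.68, and 2 were higher and 2 lower at a p under 0.05 before adjustment. In 3 of them both promoter KO samples were below both WT samples, and in 2 they were above. The trophoblast list summed to 25.2 and 64.0 FPKM in WT and to 20.1 and 20.1 in promoter KO EBs, with *Cdx2* as its most abundant gene. The part of all these cell types in the differences of the 10 genes was not tested.

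**Figure D4:**
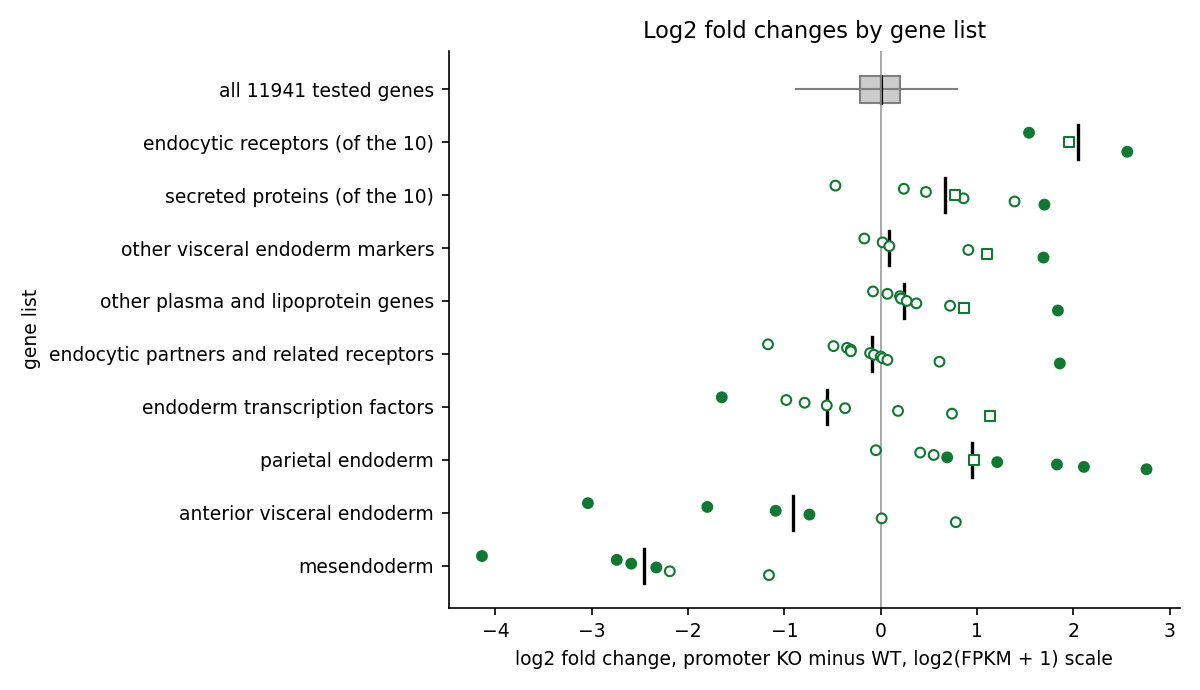
Log2 fold changes of promoter KO against WT on the log2(FPKM + 1) scale for the tested genes of 9 lists, with filled points for an adjusted p under 0.05, open squares for genes under 1 FPKM in all samples of a genotype and black bars for medians without these. The top row shows all 11941 tested genes as their median, middle 50% (box) and middle 95% (line). Of the 3 endocytic receptors, *Amn* and *Lrp2* lie to the right of that line. *Cubn* is an open square, and the filter fixed its direction.

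The 5 tested genes outside these lists whose pattern over the 4 samples was most like that of *Amn* were *Aqp8*, *Ctsh*, *Glipr1*, *Slco2a1* and *Pga5*. Likeness was the root mean square difference of log2(FPKM + 1) centred on the mean of the 4 samples, which ran from 0.203 for *Aqp8* to 0.336 for *Pga5*. *Aqp8*, a water channel, was at 0.479 and 0.0358 FPKM in WT EBs against 6.20 and 9.27 in promoter KO EBs. *Ctsh*, a lysosomal cathepsin, was at 4.39 and 2.29 FPKM in WT EBs against 23.9 and 34.4 in promoter KO EBs, and *Slco2a1*, a prostaglandin transporter, at 0.272 and 0.271 FPKM in WT EBs against 4.27 and 5.43 in promoter KO EBs. Since they were chosen for this likeness, their direction was fixed by the choice and no call is read from them.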

How the data were processed

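RNA-seq values of day 3 EBs were used from 2 WT and 2 promoter KO samples, grouped by their labels. The deposited values are the FPKM of each sample. Per the labels, HISAT2 2.1.0, Cufflinks, Cuffnorm and mm10 were used, whereas the methods of the study name TopHat with Cufflinks and GENCODE M4 and call the unit RPKM. Reads were not used here.

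From these values log2(FPKM + 1) was computed, and 11941 genes that reached 1 FPKM in 2 or more samples entered limma (version 3.58.1, R version 4.3.3), with lmFit and a trend in eBayes, and Benjamini-Hochberg adjustment over all of them. An exact permutation test of 2 against 2 samples cannot give a two-sided p below 0.333 and was not used. Tables and figures were made with Python 3.11.15, pandas 2.3.3, numpy 2.4.6 and matplotlib 3.10.9, and coordinates come from GENCODE M21 (GRCm38). The depth assumes fragments of 200 bases, the length of 0, 100, 200 and 300 bases at which most genes shared 1 peak (168 to 177 of 5671 genes per sample), and the fragments of a gene assume its longest coding transcript, so both are approximate.

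The members and lists were chosen with earlier results of these data known. Named were all 10 genes, *Gm11549*, list genes with an adjusted p under 0.05 (or, where none or over 6 passed, the 4 with the largest fold changes), and the 5 genes most like *Amn*. The rule for list genes was not applied to the list of liver transcripts. Its names and all other names were chosen after their values were seen. For 1 gene of the list of endocytic partners, which its counts and median include, values are not reported here. Alternatives were another pseudocount, other filters, limma without the trend, centring, quantile normalization, a replicate block, each sample left out, the thresholds of the study, a ratio of means and, chosen after seeing the data, those thresholds with a ratio of means, counts over genes with 1 FPKM or more in a sample of each genotype, and differences within libraries of the same number.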

Additional observations from a re-analysis of the deposited data

How the results depend on the processing

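Of the 10 genes, 4 were called higher over all samples (with *Cubn*, which passed the filter only through promoter KO, and 3 without it), against 0 with no filter beyond a value above 0 (18215 genes tested), where 6 of the 8 genes with 1 FPKM or more in a sample of each genotype were higher and 1 was lower before adjustment (p under 0.05), and 2 with a filter at a mean of 5 FPKM, which kept 3 of the 10. Leaving out 1 sample gave 0 to 4 (0 to 3 without *Cubn*), with 0 without WT 2 or promoter KO 1. In no fit was any of the 10 called lower by limma, with 0 or 1 lower before adjustment.

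Over all tested genes, the 201 called higher and 226 called lower became 0 and 0 without the filter (2077 and 1982 at an unadjusted p under 0.05), 95 and 108 with the filter at a mean of 5 FPKM, where fewer genes were tested, and 55 and 27 without the trend. With centring 157 were called higher and 126 lower. Leaving out 1 sample gave 0 to 238 higher and 0 to 248 lower. The 0 calls without WT 2 stood beside 899 higher and 976 lower before adjustment, and those without promoter KO 1 beside 966 and 1043.

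With a ratio of mean FPKM above 2 or below 0.5 and an unadjusted p under 0.05, chosen after seeing the data, 7 of the 10 were higher, with *Cubn* and *Apob*, whose direction the filter fixed, and 5 of the other 8, and 335 of all tested genes were higher and 387 lower.

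The median log2 fold change of 1.13 became 1.84 with a pseudocount of 0.1 and 1.99 as a ratio of means over all 10, and 1.61 and 1.64 over the 8 without *Cubn* and *Apob*. It ran from 0.73 to 1.38 with 1 sample left out (0.70 to 1.38 over the 8), and was 0.54 and 1.46 over all 10 within the libraries numbered 1 and 2 (0.42 and 1.46 over the 8), a comparison chosen after seeing the data. *Apoa1* ran from -0.66 to 1.14 with 1 sample left out, with the sign changed to -0.07 without WT 1, -0.66 without promoter KO 2 and -0.35 within the libraries numbered 1. The cause of these changes was not tested.

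With a replicate block, 535 genes were called higher and 667 lower, and *Apoe* (log2 fold change 0.47) was called in addition to *Amn*, *Lrp2* and *Ttr* among the 8 genes, and *Cubn* outside them. Deviations of same-numbered samples from their group means correlated at 0.0348 across tested genes, so the numbers were not taken as pairs.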
